A study of Caenorhabditis elegans with 2 samples.

Results

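Of the 1550 regions called reproducibly bound by the tagged B0261.1 protein, 332 (21.4%, Wilson 95% interval 19.4 to 23.5%) had their summit, the base of highest enrichment, between genes. A region was taken as lying between genes when its summit was in no protein-coding gene, outside the promoter window from 500 bp upstream to 100 bp downstream of every protein-coding gene start, and over 100 bp from every tRNA, tRNA pseudogene, snoRNA, snRNA, rRNA, miRNA or ncRNA gene of the RefSeq annotation of WBcel235, the assembly also named ce11. Chromatin immunoprecipitation with an anti-GFP antibody and sequencing (ChIP-seq) was carried out on whole Caenorhabditis elegans of strain OP662, whose genotype is unc-119(tm4063) III; wgIs662 and which stably expresses B0261.1 with a GFP-FLAG tag at its C terminus. The animals were young adults of mixed sex, 64 hours after synchronisation as starved L1 larvae, in 2 biological replicates, numbered 1 and 3, of 1 group. Untagged animals and the control libraries were not analysed here, and no comparison between conditions was possible. The 1550 regions had passed a test of irreproducible discovery rate (IDR), which favours regions of like rank, and are called IDR peaks. Not every one of them ranked alike in both replicates' own lists, as given below.

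The product of B0261.1, also named vep-1, carries a Myb-like domain, and such folds contact DNA in many proteins. RNA polymerase III transcribes tRNA genes from promoters inside the gene: an A box near the start, a B box further on, both bound by the factor TFIIIC, and a run of T at which transcription ends. In several organisms TFIIIC also occupies sites between genes that carry a B box without an annotated gene, and genomes hold many tRNA-like remnants and repeats with the same boxes.

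The reference sequences at the peaks between genes are shown first, since much of the description rests on the letters they hold.

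In the first 7 of these sequences, from RefSeq (WBcel235, 1-based coordinates), capitals mark the A box and the B box, here GTTCNANNC, which are followed by a run of TTTT in lower case. Where more than 1 stretch fits the A box, only the one nearest to the B box is marked. In III:3107747 an overlapping stretch that begins further from the B box also fits. Peaks are named by chromosome and summit. The first 3 are among the strongest of the peaks with this arrangement, and the next 4 are members of the largest groups of alike sequences.
X:4453253, chrX:4453258-4453354, plus strand: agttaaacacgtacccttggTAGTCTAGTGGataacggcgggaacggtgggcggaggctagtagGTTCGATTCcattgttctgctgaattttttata
III:2031370, chrIII:2031308-2031408, minus strand: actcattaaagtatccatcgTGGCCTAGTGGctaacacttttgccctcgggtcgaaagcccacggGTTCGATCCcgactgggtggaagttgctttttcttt
III:89384, chrIII:89281-89379, minus strand: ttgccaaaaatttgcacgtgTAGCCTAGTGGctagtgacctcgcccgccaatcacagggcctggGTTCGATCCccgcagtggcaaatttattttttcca
IV:4949923, chrIV:4949912-4950009, plus strand: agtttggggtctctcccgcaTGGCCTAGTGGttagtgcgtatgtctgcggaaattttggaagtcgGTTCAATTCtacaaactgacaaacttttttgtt
III:1354713, chrIII:1354703-1354801, plus strand: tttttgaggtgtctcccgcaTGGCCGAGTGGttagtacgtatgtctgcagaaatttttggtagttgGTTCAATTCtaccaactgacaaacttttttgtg
III:3107747, chrIII:3107635-3107724, minus strand: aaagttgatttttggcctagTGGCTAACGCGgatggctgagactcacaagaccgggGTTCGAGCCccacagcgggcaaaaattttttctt
X:4607518, chrX:4607439-4607538, minus strand: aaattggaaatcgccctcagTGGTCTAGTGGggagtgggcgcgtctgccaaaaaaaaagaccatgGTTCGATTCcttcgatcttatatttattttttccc
The next sequence is from a group in which no peak held the A box, B box and T run in order, and capitals mark the A box and the looser GTTCNNNCC.
IV:16555755, chrIV:16555656-16555754, minus strand: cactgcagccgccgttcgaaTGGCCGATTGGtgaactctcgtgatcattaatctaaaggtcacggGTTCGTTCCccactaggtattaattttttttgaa
The last 3 are the bases around the summit of strong peaks with no such arrangement, with no capitals because nothing in them was marked. Of these 3, III:502702 had a B box within 100 bp of the summit, but not within the printed bases.
X:1837919, chrX:1837869-1837969, plus strand: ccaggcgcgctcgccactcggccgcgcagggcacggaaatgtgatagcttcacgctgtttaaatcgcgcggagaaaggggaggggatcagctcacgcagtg
III:502702, chrIII:502652-502752, plus strand: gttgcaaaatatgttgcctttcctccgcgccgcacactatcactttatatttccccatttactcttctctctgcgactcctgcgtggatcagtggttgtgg
IV:15187859, chrIV:15187809-15187909, plus strand: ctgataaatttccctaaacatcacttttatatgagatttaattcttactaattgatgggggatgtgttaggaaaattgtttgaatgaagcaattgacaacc

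Pooled regions between genes were called about as often as pooled regions in general. Of 6596 regions between genes in the pooled list of 30000 regions that went into the IDR test, 331 (5.02%) had an IDR summit within 100 bp, beside 5.10% of all pooled regions. The same share was 95.3% at tRNA genes, 4.41% at protein-coding promoters and 1.46% inside protein-coding genes. Bases that meet the rule made up 29.4% of the genome, which gives 11.3 peaks per Mb of such sequence. When the 1550 strongest regions of each replicate's own list were taken in place of the IDR peaks, 331 of replicate 1 and 338 of replicate 3 lay between genes, or 21.6% ± 0.319 (SD, n = 2). The 6265 pooled regions between genes with no IDR summit within 100 bp are the background of what follows, and 58966 positions spaced 500 bp apart over the bases that meet the rule are the grid.

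Enrichment is given as the authors' signal value, which is used here only within 1 list because its scale is not given in the sources used here. Among the 332 peaks the signal had a lowest value of 180, a median of 343 and a highest value of 4719, with the central 50% of values between 232 and 628. The median was 504 over all IDR peaks, 2510 at tRNA genes, 592 at tRNA pseudogenes, snoRNA, snRNA, rRNA or miRNA genes, 350 at unclassified ncRNA genes, 295 inside protein-coding genes and 235 at protein-coding promoters. The peaks between genes thus overlapped every other class in signal, and 40 of them had a signal of 1000 or more.

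The strongest peak, X:1837919, had a signal of 4719 in the IDR list, 847 in replicate 1 and 3969 in replicate 3. It lay in the pseudogene T26C11.3, 7882 bp from C14E2.6 and 2635 bp from T26C11.4, with 63.4% G or C bases around the summit and no B box within 100 bp. III:502702 had 3906 in the IDR list, 677 in replicate 1 and 3280 in replicate 3, with a B box within 100 bp but not the arrangement. It lay 77 bp past the end of unc-45, which encodes a myosin chaperone, and 102 bp from the snoRNA gene F30H5.4. III:1601668 had 3493, 564 in replicate 1 and 2541 in replicate 3, with the A box, B box and T run in order; the nearest gene start, 524 bp away, was that of sms-3, of the sphingomyelin synthase family. These 3 peaks stood above all others between genes in the IDR list, and both replicates' own lists also put the first 2 at the top.

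IV:15187859 had a signal of 2871, with 568 in replicate 1 and 2325 in replicate 3, between the chemoreceptor genes srd-23 and sra-30 and 126 bp from the ncRNA gene Y40H7A.309, and held no B box. X:4453253 had 2841, with 513 in replicate 1 and 2358 in replicate 3, 867 bp from the start of F02E8.4 and with the arrangement printed above. III:2031370 had 2787, with 503 in replicate 1 and 2144 in replicate 3, between ckr-2, a neuropeptide receptor gene, and dpy-1, a gene of body shape; its region overlapped another IDR region at a listed noncoding gene or promoter. The remaining 4 of the 10 strongest ranged in signal from 2000 to 2454. III:89384 lay in the gap of 209 bp between mrpl-40, of the mitochondrial ribosome, and pat-4, the integrin-linked kinase of muscle attachments. IV:8375633 lay in the gap of 350 bp between aagr-1, an acid alpha-glucosidase gene, and D2096.7, with no B box. I:852271 lay 1180 bp from the start of zfr-1, and II:5353902 lay 143 bp from F09E5.7 and 1782 bp from the start of the chemoreceptor gene srg-69. Of the 10 strongest, 6 held the arrangement of boxes, and all 10 were in the top lists of both replicates.

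The 2 weakest peaks were X:16218197, with a signal of 180.4, 87.6 in replicate 1 and 176 in replicate 3, and III:975313, with 180.2, 30.8 in replicate 1 and 163 in replicate 3. The first lay 230 bp from the tRNA gene F23A7.t1 and its region overlapped an IDR region of another class; the second lay in the pseudogene R06B10.2, and no stretch of 31 bases in its sequence was unique in the genome.

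Both replicates' lists held a summit within 100 bp for 291 of the 332 peaks (87.7%), beside 91.7% of all IDR peaks. Of the rest, 26 had none in replicate 1 and 21 none in replicate 3, and both counts include 6 with none in either. When each replicate's list was cut to its 1550 strongest regions, 197 peaks (59.3%, 54.0 to 64.5%) were in both, beside 67.0% of all IDR peaks; replicate 1 held 215 of the 332 and replicate 3 held 281. Over the 291 peaks in both lists the signal ranged from 13.6 to 847 with a median of 76.7 in replicate 1, and from 47.4 to 3969 with a median of 309 in replicate 3. The ranks went together with a Spearman rho of 0.84 across these peaks, which are not independent replicates and had passed the IDR test. That test favours regions of like rank, though ranks could still differ: III:3108988 ranked 10774 in replicate 1 and 1075 in replicate 3. Replicate 3 had the higher value at 290 of the 291, and since each list has its own scale this says nothing about the amount bound.

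**Figure D1:**
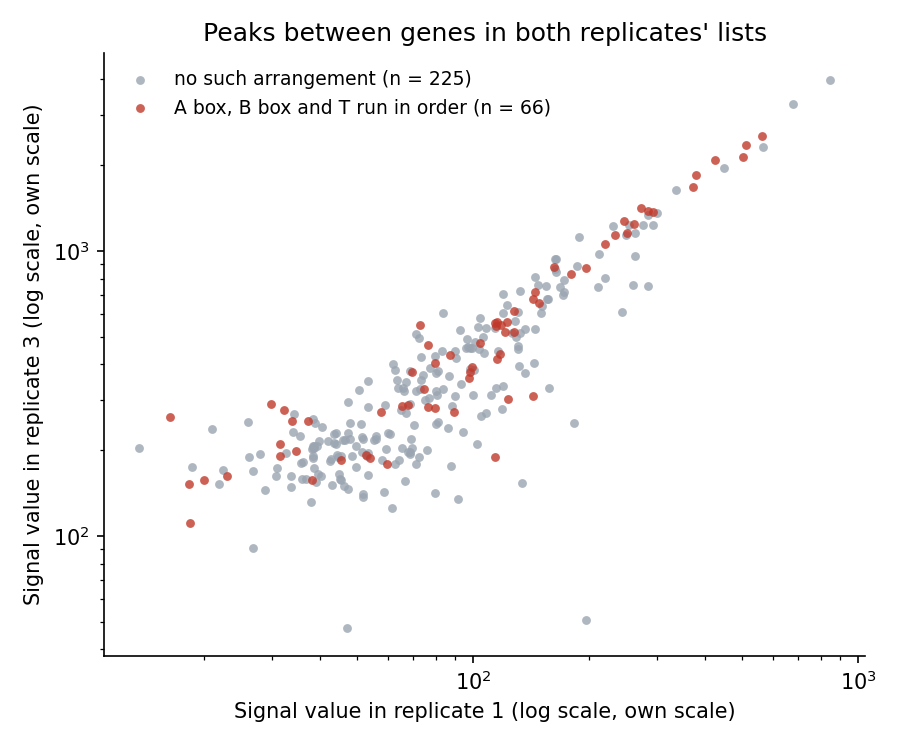
Each point is 1 of the 291 peaks between genes found in both replicates' lists, with its signal value in replicate 1 across and in replicate 3 upwards, both on log axes and on each list's own scale. Red points hold an A box, a B box and a T run in order (n = 66) and grey points do not (n = 225); both kinds run along 1 band, which is narrower at high signal.

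Presence in both top lists is given by signal as a description: the IDR signal comes from the same replicates pooled, and the top lists are cut by signal, so a rise with signal is built in, and only peaks of like signal can be set side by side. It was 14 of 107 peaks (13.1%) below a signal of 250, 74 of 112 (66.1%) between 250 and 500, 70 of 73 (95.9%) between 500 and 1000, and 39 of 40 (97.5%) at 1000 or more. Inside protein-coding genes the shares in the same ranges were 19.6%, 64.5%, 75.8% and 100% of 92, 93, 33 and 24 peaks. At protein-coding promoters they were 9.30%, 50%, 81.8% and 100% of 129, 86, 11 and 2 peaks. The exception among the 40 strongest was I:432297, which had a signal of 1122 in the IDR list and 938 in replicate 3 but no summit within 100 bp in replicate 1, and which belongs to the fourth of the sequence families described further on. Its region held a second summit, I:432504, which had 157 in replicate 1 and was in both top lists, so the region itself was found in both replicates.

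**Figure D2:**
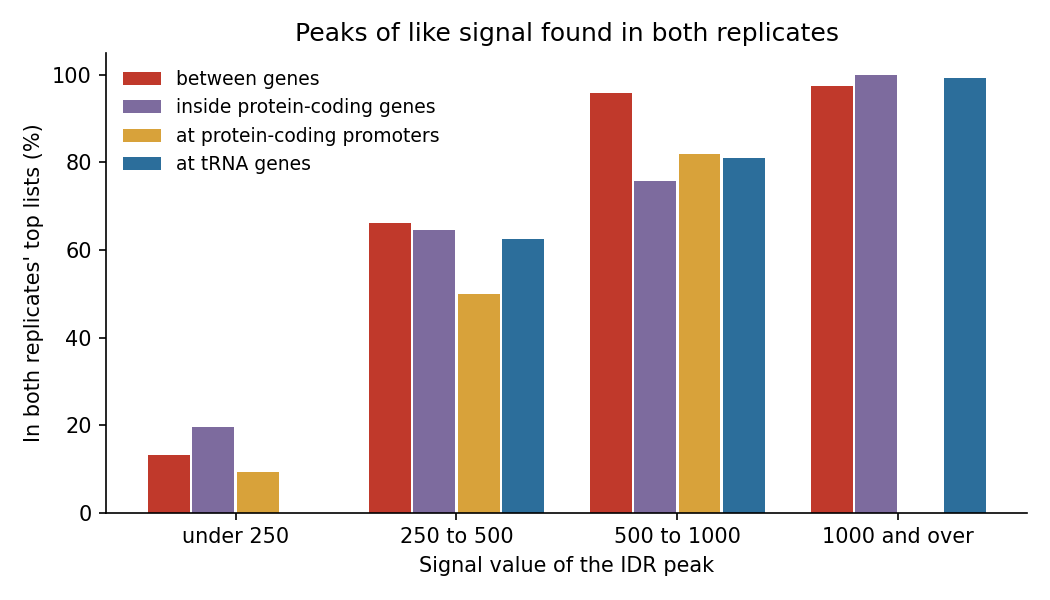
Bars give the share, in percent, of IDR peaks with a summit within 100 bp in the 1550 strongest regions of both replicates, by range of the IDR peak's signal value and by class. Only classes with at least 10 peaks in a range are drawn; the peaks between genes go from 13.1% in the lowest range to 97.5% in the highest, a rise that the construction of the lists builds in.

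A B box, GTTCNANNC on either strand within 100 bp of the summit, was present at 117 of the 332 peaks (35.2%, 30.3 to 40.5%), beside 47.7% of all IDR peaks. It was present at 9.0% of the background regions and at 6.92% of the grid positions. The share was 84.2% for peaks at tRNA genes, 40.5% inside protein-coding genes and 8.77% at promoters. A stricter form, with a further G in front and a G in place of the first N, was found at 15.7% of the peaks, 2.12% of the background and 0.463% of the grid. GTTCNNNCC, which can overlap the first motif, was found at 17.2%, 5.70% and 3.64% in the same order. In the top lists of the replicates, a B box was within 100 bp at 28.4% of regions between genes in replicate 1 and 32.8% in replicate 3, so both stood above the background share.

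The B boxes sat to 1 side of the summit. With each box read on its own strand, 81 boxes at the 332 peaks began 40 to 100 bp ahead of the summit and 19 lay the same distance behind it, or 24.4 and 5.72 per 100 peaks. At background regions the figures were 3.35 and 2.60 per 100. At IDR peaks of tRNA genes they were 82.1 and 8.19, and inside protein-coding genes 28.1 and 8.26. In the replicates' own lists 19.3 per 100 regions were ahead and 3.93 behind in replicate 1, against 22.8 and 5.03 in replicate 3. Within that stretch the median box ahead began 69 bp from the summit at the peaks between genes. It was 67.5 bp at background regions and 77 bp at tRNA genes. Only boxes 40 to 100 bp ahead were counted, so an even spread would also give a median near the middle of that stretch. These medians therefore cannot show whether the distance set the peaks apart from the background. In steps of 10 bp, the peaks had 6.63 boxes per 100 at 70 to 80 bp ahead and 0.602 at 0 to 10 bp. The background had 0.543 and 0.479 in the same steps.

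**Figure D3:**
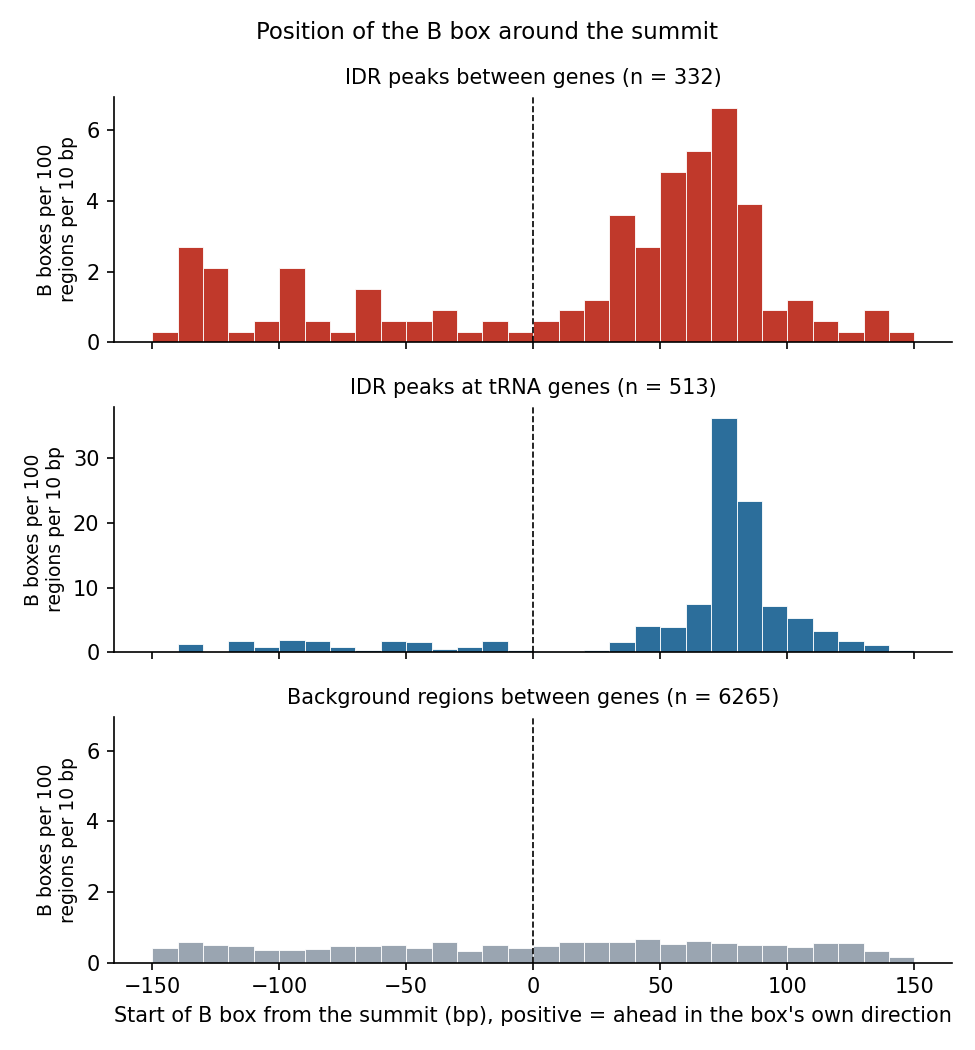
Histograms of the distance in bp from the summit to the start of each B box, read on the strand of the box, in bins of 10 bp, as boxes per 100 regions, for the 332 peaks between genes, for the 513 IDR peaks at tRNA genes and for the 6265 background regions; the vertical scales differ between panels, and the first and last share 1 scale. The peaks between genes and those at tRNA genes both have their mode ahead of the summit, marked by the dashed line.

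The fuller arrangement of an A box, a B box beginning 30 to 75 bp after it and a TTTT run within 60 bp of the B box, all within 150 bp of the summit, was present at 69 peaks (20.8%), beside 41.4% of all IDR peaks. It was present at 2.15% of background regions and 0.429% of grid positions, and at 90.8% of peaks at tRNA genes, 27.7% of those inside protein-coding genes and 3.07% of those at promoters. The top lists of the replicates gave 18.1% in replicate 1 and 20.7% in replicate 3. In these 69 peaks the A box began a median of 19 bp ahead of the summit and the B box 63 bp, a spacing of 44 bp; at tRNA genes the medians were 32, 77 and 44 bp. The A box alone was at 51.5% of the peaks, 22.2% of the background and 19.2% of the grid, and TTTT at 97.3%, 97.6% and 98.6%, so the run of T set little apart.

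The boxes were more frequent at stronger peaks. Cut by signal into 4 groups of 83, the peaks held the arrangement at 37.3%, 22.9%, 15.7% and 7.23% from the strongest group to the weakest, and a B box at 51.8%, 37.3%, 27.7% and 24.1%. Peaks with the arrangement had a median signal of 535 (185 to 3493), and the 263 without it had 290 (180 to 4719), so the ranges overlapped almost throughout. In replicate 1 the medians were 105 with the arrangement and 71.1 without it, and in replicate 3 they were 430 and 269. Both top lists held 52 of the 69 (75.4%) with it and 145 of the 263 (55.1%) without it. The pooled regions between genes that ranked just below the IDR peaks, 429 of the next 1550, held a B box at 17.7% and the arrangement at 8.62%, below the shares of all 332 peaks and above those of the background.

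The sequence within 50 bp of the summit had a median GC content of 43.1% at the peaks, 37.6% at background regions and 32.7% on the grid. In the top lists of the replicates the regions between genes had 38.6% in replicate 1, nearer to the background. They had 41.6% in replicate 3, nearer to the peaks. Among all sequences of 6 bases, counted together with their reverse complements within 100 bp, CGGCCA had the largest difference from the background in percentage points: it was at 14.8% of the peaks and 2.55% of background regions. ACCACT was at 16.3% and 4.10%, GGCCGA at 13.3% and 2.49%, TAACCA at 13.9% and 3.22%, and CCACTC at 13.3% and 2.95%. All 5 occur, on the printed strand or its complement, in the stretch that begins with the A box of III:1354713 above. In the 263 peaks without the arrangement CGGCCA was at 11% and ACCACT at 11.4%. In replicate 1 CGGCCA was at 12.4% of the regions between genes in the top list and 2.87% of the rest of its list, and in replicate 3 at 15.7% and 2.48%. Over all such sequences, 386 (18.6%) were at least 1.5 times as frequent at the peaks as in the background, so these 5 head a long list. TATAAA, the core of a promoter element, was at 17.8% of the peaks and 19% of the background, and GAGAGA at 20.8% and 19.3%.

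Many of the peaks lay in sequence present more than once in the genome. All 31-base stretches around the summit were unique at 181 peaks (54.5%) and at 85.4% of background regions, and none was unique at 19 peaks (5.72%) and at 1.36%. How the authors placed reads that match several copies is not given in the sources used here, so the signal at repeated sequence can belong to another copy. The share of lower-case, that is masked, bases in the reference was no higher than in the background, with a median of 23.8% against 26.7%. A stretch of 20 bases identical to part of an annotated tRNA pseudogene elsewhere was found at 43 peaks (13.0%) and at 1.29% of background regions. Such a stretch was shared with a tRNA gene at 2 peaks (0.602%, against 0.208% of the background), with a snoRNA gene at 8 (2.41%, against 0.303%) and with an ncRNA gene at 46 (13.9%, against 12.1%).

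When windows of 100 bp on each side of the summits were aligned to one another, 156 peaks (47.0%) fell into 23 groups joined by alignments of 50 bases or more, here called families, and the 4 largest held 98 (29.5%). At the other end, 105 windows (31.6%) aligned to no other place in the genome. The arrangement of boxes was at 54 of the 156 family members (34.6%) and at 15 of the 176 others (8.52%).

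Family 1 had 35 members at 30 sites on all 6 chromosomes, with a median signal of 663 (201 to 1650); 19 held the arrangement and 33 were in both top lists. IV:4949923 and III:1354713 above show how alike the copies are, and 20 members shared 20-base stretches with the tRNA pseudogene Y94H6A.t1. Family 3 had 20 members with a median of 415 (206 to 1053), 15 with the arrangement, none on X and 11 on chromosome III; 13 shared stretches with annotated tRNA pseudogenes. Of these, 5, III:3107747 above among them, lay in 1 pseudogene, Y53G8B.3. Family 4 had 17 members at 12 sites with a median of 356 (187 to 1272), of which 5 held the arrangement and none shared a stretch with a tRNA pseudogene.

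Family 2 had 26 members with a median of 345 (180 to 1025), 13 of them on X, and none held the arrangement. Of the 26, 8 held an A box followed by the looser GTTCNNNCC, as printed for IV:16555755. That peak, with a signal of 809 and 675 in replicate 3 but no summit within 100 bp in replicate 1, lay 13006 bp from the nearest protein-coding gene, uroc-1, which encodes urocanate hydratase.

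Genomic copies were counted as places alike to 1 representative peak of each family, in any position class, and many were not called. Of 81 such copies for family 1, 46 (56.8%) had an IDR summit within 100 bp. The figures were 15 of 51 (29.4%) for family 2, 33 of 146 (22.6%) for family 3 and 27 of 128 (21.1%) for family 4. In families 1 to 4, 54, 26, 40 and 64 copies lay between genes. Of the called copies, 30, 11, 13 and 10 did. Family 2 had 24 sites of peaks between genes and family 3 had 19, so these copies do not take in every member. Copies with a B box were called more often in family 1, at 36 of 53 (67.9%) against 10 of 28 (35.7%) without one, and in family 4, at 21 of 50 (42.0%) against 6 of 78 (7.69%). In family 3 the shares were 31 of 137 (22.6%) with a B box and 2 of 9 (22.2%) without, and in family 2 they were 3 of 5 and 12 of 46 (26.1%). The copies are alike in sequence and the families were built on called peaks, so these shares are a description.

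**Figure D4:**
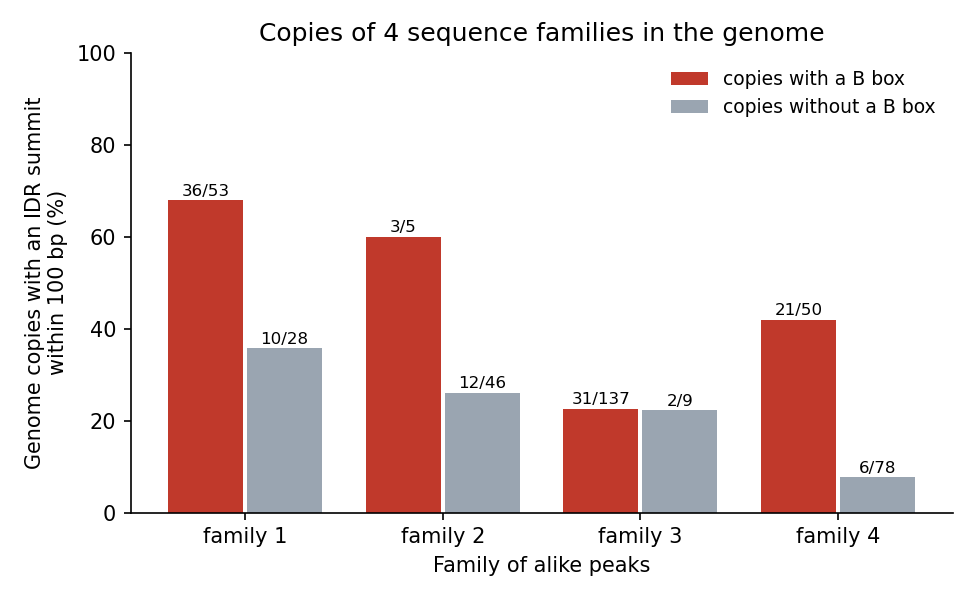
Bars give the share, in percent, of genomic copies that had an IDR summit within 100 bp, with the counts above the bars. Copies are places in any position class alike to 1 representative peak of each of the 4 largest families. They are split into those with and without a B box. The bars with a B box are the taller in families 1, 2 and 4 and level with the other bar in family 3.

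The peaks were spread unevenly over the chromosomes. Chromosome X held 35.8% of the 332 peaks (30.9 to 41.1%), while it held 26.9% of the background regions and 21.9% of the bases that meet the rule. Chromosome III held 54 peaks (16.3%), beside 13.8% of the background and 11.4% of the bases. Chromosomes IV and V held 43 each, II held 40 and I held 33. Per Mb of bases that meet the rule there were 18.4 peaks on X, 16.1 on III, 9.76 on I, 9.28 on II, 7.54 on IV and 6.88 on V. X held 43.5% of the peaks at tRNA genes and 15.3% of those inside protein-coding genes. The shares of tRNA genes and of bases in protein-coding genes on X were not set beside these figures, so they show no lean. In the replicates' top lists X held 40.8% of the regions between genes in replicate 1 and 34.3% in replicate 3. When peaks with overlapping regions were merged and 1 summit was kept per site, X held 32.4%.

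**Figure D5:**
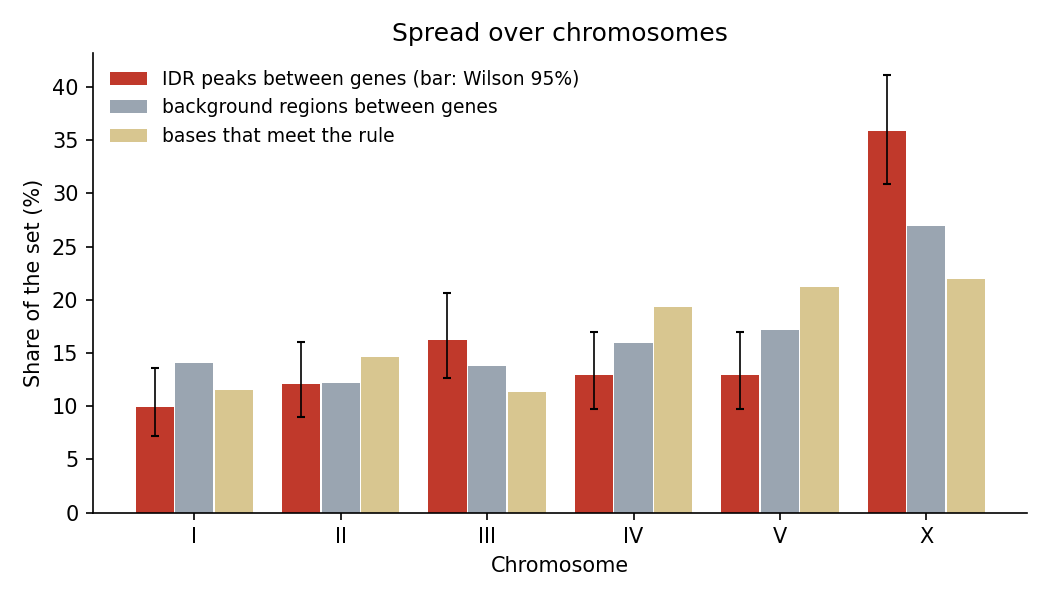
For each chromosome the bars give the share, in percent, of the 332 peaks between genes, of the 6265 background regions and of the bases that meet the rule; error bars are Wilson 95% intervals on the counted peaks. The red bar for X, at 35.8%, stands above both other bars of that chromosome, and those for IV and V, at 13.0% each, stand below theirs.

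The peaks on X differed in sequence and surroundings from those on the autosomes. The arrangement of boxes was at 10 of the peaks on X (8.40%) and at 59 of 213 on the autosomes (27.7%), and a B box at 22.7% and 42.3%. In the background the arrangement was at 0.237% on X and 2.86% on the autosomes, so the background differed in the same direction. Fewer peaks on X belonged to a family, 39 (32.8%) against 117 (54.9%). A tRNA gene lay within 5000 bp of 36 peaks on X (30.3%) and of 16 on the autosomes (7.51%), beside 13.1% and 5.92% of background regions and 9.05% and 2.97% of the grid. The median signal was 372 (180 to 4719) on X and 317 (180 to 3906) on the autosomes; X:1837919 alone lay above every autosomal peak.

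In C. elegans the arms of the autosomes are rich in repeats and recombine more than the centres. When each autosome was cut into 3 equal parts, 100 of the 213 autosomal peaks (46.9%) lay in the left part, 50 (23.5%, 18.3 to 29.6%) in the middle and 63 (29.6%) in the right. The background was spread at 31.9%, 31.8% and 36.4%, and the bases that meet the rule at 33.3%, 30.6% and 36.1%. Autosomal IDR peaks inside protein-coding genes were also sparse in the middle, at 24.9%, and those at tRNA genes had 33.8% there. Of the 59 autosomal peaks with the arrangement, 39 lay in the left part, 7 (11.9%) in the middle and 13 in the right. The lean to the left came mostly from chromosomes III and II, with 33 of 54 and 27 of 40 peaks in the left part; chromosomes IV and V had 19 of 43 each in the right. On X the 3 parts held 42, 26 and 51 peaks.

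By steps of 1 Mb, 2 stretches of X stood out, from 16 to 17 Mb with 22 peaks and from 1 to 2 Mb with 19, while no other of the 103 steps held more than 9 and 18 held none. Per Mb of bases that meet the rule the gap was smaller, with 50.5 and 40.2 peaks in these stretches of X and 33.5, 32.5 and 31.2 in the steps of chromosome III from 1 to 4 Mb. These are counts of summits, and the 332 peaks merged into 288 sites of overlapping regions, with 246 peaks alone at their site. A step can thus hold fewer sites than peaks. Only 1 of the 22 and 2 of the 19 held the arrangement. From 3 to 4 Mb on chromosome III, 7 of 8 peaks held it and all 8 were of family 3.

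The protein-coding genes on either side pointed away from the peak at 95 peaks (28.6%), the same way at 169 (50.9%) and towards it at 67 (20.2%), and 1 peak, X:30443, had a neighbour on 1 side only. Convergent neighbours made up 14.4% in the background and 13.9% on the grid. The gap between the neighbours had a median of 5675 bp, against 5334 bp for the background. The nearest gene start was a median of 2225.5 bp away, against 2029 bp for the background and 2297 bp for the grid; it was 500 to 1000 bp away at 73 peaks, 1000 to 2000 bp at 75 and more at 184. The summit was within 500 bp past a gene end at 72 peaks (21.7%, 17.6 to 26.4%), against 26.3% of the background and 14.6% of the grid. The median start distance thus lay between those of the background and the grid, while 22.0% of the peaks were 500 to 1000 bp away (background 20.7%, grid 17.8%) and 22.6% were 1000 to 2000 bp away (background 28.4%, grid 25.8%).

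Among 503 protein-coding genes that flank the peaks, 13 (2.58%) were F-box genes, which encode substrate adaptors of ubiquitin ligases, beside 0.846% of 5083 genes that flank the background. Chemoreceptor genes numbered 19 (3.78%, against 3.15%), nuclear hormone receptors 6 (1.19%, against 1.53%) and genes named ceh, lin or egl, many of them developmental, 8 (1.59%, against 1.14%). Ribosomal protein and cuticle collagen genes numbered 3 each, heat shock and C-type lectin genes 2 each, and histone genes 1. No cyp or ugt, vitellogenin or tRNA synthetase gene flanked a peak, beside 20, 3 and 9 genes of these lists in the background. No peak lay within 20 kb of B0261.1 itself or of unc-119; the nearest were 29862 bp and 564094 bp away.

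Other annotation reached the summit at 21 peaks, 19 in pseudogenes (5.72%, against 4.47% of the background) and 2 in lncRNA genes, and 311 summits were in no annotated gene of any kind. The pseudogene peaks of highest signal after X:1837919 were V:15454457, with 1433 in the IDR list, 231 in replicate 1 and 1226 in replicate 3, in the chemoreceptor pseudogene srh-238, and III:2065121, with 1043, 197 and 871 in the same order, in srz-86 near the insulin-like gene ins-16. The lncRNA peaks were V:1151484 in linc-128, near the calmodulin gene cmd-1, with a signal of 314, and X:16002940 in linc-7, with 251. The Ensembl annotation gave no gene at 308 summits and a protein-coding gene at 4, 1 of which also had a lincRNA. The 3 peaks farthest from any protein-coding gene were X:258753 and X:258955, at 14177 and 13975 bp and both in the pseudogene set-33, and IV:16555755.

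Some of the peaks lay close to peaks of other classes or to the limits of the rule. Of the 332, 42 (12.7%) were in regions that overlapped an IDR region at a listed noncoding gene or promoter, 25 of them at a tRNA gene. These 42 had a median signal of 429 and the arrangement at 19%, and the other 290 had 327 and 21.0%. A B box was at 26.2% of the 42 and at 36.6% of the other 290. The listed noncoding genes were 100 to 125 bp away at 18 peaks, 125 to 250 bp at 28, 250 to 1000 bp at 29 and farther at 257 (77.4%). The members nearest to that limit were IV:14225285, 101 bp from F02H6.72 with a signal of 509, III:502702, and X:8155926, 103 bp from the tRNA gene F22F1.t5 with 459. Just outside, at 99 bp, were II:11960799 at the snoRNA gene W03C9.9 with 8413, X:8386385 at F41D9.15 with 1628, and X:12872417 at T14G8.5 with 190. Nearest to the promoter limit were V:17951440 at 509 bp with 197, IV:3050623 at 519 bp from eel-1, a ubiquitin ligase gene, with 222, and III:1601668. Just outside were V:4823921 at 498 bp from adss-1 with 292, V:2757767 at 491 bp from srx-28 with 192, and X:10568785 at 488 bp from bet-2 with 221.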

How the data were processed

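ChIP-seq peak lists for the ce11 build were used, 1 per replicate (23931 regions for replicate 1, 30000 for replicate 3), 1 of 30000 regions from pooled replicates and 1 of 1550 IDR regions. The deposited lists give each region's signal value and its −log10 q-value, both made by the authors; the q-value column was 3.79 throughout the IDR list and was not used. Read depth, aligner, peak caller, control normalisation and IDR threshold are not given in the sources used here, and the ce10 lists were not used. Summits were set against RefSeq WBcel235 (WormBase release 298; 19971 protein-coding genes) and Ensembl release 115, in Python 3.11.15 with pandas 2.3.3 and scipy 1.17.1. Motifs were searched on both strands, and families were built by single linkage on BLAST 2.17.0 alignments (E-value limit 1e-05). Counts and position functions were tested on simulated data. Regions are not replicates, so no test was run; intervals are Wilson 95% and cover counting of regions only. The 10 strongest and 2 weakest members, up to 3 per chromosome, neighbour arrangement, biotype and box arrangement, the 3 farthest from genes, those near B0261.1 or unc-119 and those at the limits were eligible to be named; families, X:30443 and sequences to print were chosen later. The members and lists were chosen with earlier results of these data known. Alternatives moved the distance and promoter limits, the shared-summit distance, the motif and its window, and left out weak or overlapping regions or 1 replicate.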

Additional observations from a re-analysis of the deposited data

How the results depend on the processing

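Of 100 alternative values over 13 results, 49 stayed within the replicate SD, or within the interval where there was no SD, and 51 moved. The share of IDR peaks between genes (21.4%) was 24.3% and 18.5% with limits of 50 and 250 bp to noncoding genes, 17.4% and 27.6% with promoter windows from 1000 and 200 bp, 19.8% with 1 summit per site, 14.2% among IDR peaks above the median signal, 18.7% without overlapping regions and 21.4% to 21.8% in single replicates. With the 200 bp promoter window the median signal was 294, the share in both top lists 53.0%, in the middle part of an autosome 27% and with a B box 29.0%, and the start distance 1545.5 bp; with the 1000 bp window the start distance was 2799 bp, the share in both top lists 60.6% and in the middle part 21.4%. Above the median signal the values were a median signal of 809, 96.4% in both top lists, 19.1% in the middle part, 46.4% with a B box, 33.6% with the arrangement, 1.67% of pooled regions called, 17.3% near a gene end and a start distance of 2097 bp. With 1 summit per site they were 58.5% in both top lists, 22.2% in the middle part, 39.1% with a B box, 24.5% with the arrangement and 45.5% GC. With the 50 bp noncoding limit, 61.0% were in both top lists and 26.1% in the middle part; with 250 bp, 22.3% were in the middle part and 38.5% held a B box. Without overlapping regions 58.6% were in both top lists, and a shared-summit distance of 50 or 250 bp gave 50.3% or 71.7%, and 250 bp gave 7.22% of pooled regions called. The middle of an autosome taken as 50% of its length held 35.2% of the autosomal peaks, beside 46.7% of the bases that meet the rule. A B box within 50 bp was at 9.64% and the stricter one at 15.7%, GC over 100 bp on each side was 40.3%, and alignments of 80 bases put 41.6% in families. Single replicates gave 68.0% to 68.9% in the other's top list, 23.9% to 25% in the middle part, 28.4% to 32.8% with a B box, 18.1% to 20.7% with the arrangement, 34.3% to 40.8% on X, 38.6% to 41.6% GC, 4.59% to 5.45% of pooled regions called, 19.5% to 23.3% near a gene end and start distances of 2134 to 2235 bp. Background taken from the next-ranked pooled regions held a B box at 17.7%. The median signal of a single replicate is on another scale and is not set beside the pooled one. The cause of these moves was not tested beyond the regions each setting adds or removes; X, the arrangement and families were added as results after seeing the data. No paired analysis was possible because the 2 replicates form 1 group with nothing to pair them against. Read depth is unknown, so no statement on depth limits can be made; regions in repeated sequence and the lack of untagged animals in the comparison limit what each peak shows.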
